A study of Rattus norvegicus with 40 samples.

Results

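The 8 genes described here make serine, break it down, or pass its carbon to folate: Phgdh, Psat1 and Psph (synthesis of serine), Sds (breakdown of serine), Shmt1 and Shmt2 (serine to glycine), and Mthfd1 and Mthfd2 (the folate enzymes that carry the carbon on). They were taken from rat liver arrays by gene symbol, out of 14497 named genes, and where a symbol had several array rows the row with the highest mean was used. The set was chosen by the measured rapamycin response of Psat1 and Phgdh, which differed between the models of liver growth studied; the other 6 were added as enzymes of the same pathway. The rapamycin values of those 2 genes, and their levels across the models, are therefore given below as a description with no test, and tests are given for the other 6 enzymes and for the comparison of polysome with total RNA.

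The study hybridised 40 Affymetrix Rat Gene 1.0 ST arrays with liver RNA of Sprague Dawley rats, either polysome RNA from a sucrose gradient or total RNA. Polysome and total RNA arrays of equal model, treatment and number were assumed here to come from 1 liver, which makes 20 livers. Each model held livers injected with the solvent DMSO and livers injected with rapamycin, an inhibitor of the kinase complex mTORC1, which makes 12 groups. In the fasted/refed model, adults of 125 to 150 g were fasted for 48 h, injected into the peritoneum with DMSO or with 250 μg of rapamycin per 100 g of body weight, given food 1 h later, and killed after 3 h of feeding (3 livers per group). In the hepatectomy model, adults of the same weight range received the same injections 1 h before partial removal of the liver and were killed 24 h after the operation (3 livers per group), and in the fetal model, fetuses were injected with DMSO or with 50 μg of rapamycin on gestational day 19, and the livers were collected after 24 h, on day 20 (4 per group). The models thus differ in age, feeding, surgery, dose and time since injection, and these cannot be told apart in any comparison between them. Polysome RNA came from pooled preparations per the labels' protocols, and no source used here states what was pooled, the sex of the rats or the litters of the fetuses. The arrays of a group are called biological replicates in the labels. No statement ties a fetus to a litter, so the p-values measure the spread between these numbered samples.

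Rapid growth raises the demand for serine, which cells draw from the diet or make from an intermediate of glycolysis. Phgdh oxidises that intermediate, Psat1 moves an amino group onto it from glutamate, and Psph removes its phosphate to leave serine. Shmt1 in the cytosol and Shmt2 in mitochondria then split serine into glycine and a carbon unit bound to folate. Mthfd2 in mitochondria and Mthfd1 in the cytosol oxidise or release that unit for the synthesis of purines and thymidylate. The adult liver also runs the opposite way: Sds deaminates serine to pyruvate, a route to glucose that is known to be induced by fasting and glucagon. mTORC1 is known to raise the synthesis enzymes through the transcription factor ATF4.

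The labels of the 3 hepatectomy polysome DMSO arrays carry the time point of refeeding, against their titles. The titles were followed. Their mean log2 intensity over 15 proliferation genes lay between 10.43 and 10.85, against 6.87 to 6.96 for refed polysome RNA. Hepatocyte markers were high everywhere (mean of 10 genes 13.28 to 13.70 on the log2 scale on all 40 arrays). Erythroid markers averaged 11.93 to 12.87 in fetal arrays and 7.32 to 8.53 in adult arrays, and granulocyte markers 9.83 to 10.93 and 5.92 to 6.52, so fetal livers held more RNA of blood-forming cells. In such whole-liver samples fewer cells of a type and less RNA per cell cannot be told apart. One refed array stood apart in its effect on the counts: without the array refed total DMSO 2 the genes called for rapamycin in refed total RNA went from 0 to 1756.

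The promoters of Phgdh, Psat1, Psph and Mthfd2 are shown first. Phgdh and Psat1 were chosen for their rapamycin response, and Psph and Mthfd2 were called lower with rapamycin in hepatectomy polysome RNA. Shmt1, Shmt2 and Mthfd1 were lower as well in hepatectomy total RNA, though not called, so these promoters are not those of a separate group. The RefSeq promoter table of the rat assembly GRCr8 held 6 of the 8 members; Sds and Mthfd1 were not among them. The windows run 5′ to 3′ along the gene and cover the 250 bases before the start that the table gives, with capitals marking the box CCAAT, which reads ATTGG where it lies on the other strand. For Psat1, whose window lies inside a longer transcript, only the surroundings of its 2 CCAAT boxes are shown.
Phgdh (chr2:188624790-188625039, minus strand): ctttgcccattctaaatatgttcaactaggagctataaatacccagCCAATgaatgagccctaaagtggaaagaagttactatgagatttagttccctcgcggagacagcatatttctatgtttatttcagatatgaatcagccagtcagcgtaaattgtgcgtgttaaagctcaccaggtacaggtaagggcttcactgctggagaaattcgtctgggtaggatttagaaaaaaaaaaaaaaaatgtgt
Psat1, first box (chr1:222645549-222645573, minus strand): gtgagcgcggCCAATggggaggcga
Psat1, second box (chr1:222645519-222645543, minus strand): tgagtgagaaCCAATcagtgcgcgt
Psph (chr12:32526841-32527090, plus strand): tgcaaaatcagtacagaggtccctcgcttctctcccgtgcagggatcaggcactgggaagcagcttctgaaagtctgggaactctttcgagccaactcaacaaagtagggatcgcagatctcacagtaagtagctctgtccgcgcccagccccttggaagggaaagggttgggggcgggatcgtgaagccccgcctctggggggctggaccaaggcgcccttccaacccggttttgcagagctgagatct
Mthfd2 (chr4:117380351-117380600, minus strand): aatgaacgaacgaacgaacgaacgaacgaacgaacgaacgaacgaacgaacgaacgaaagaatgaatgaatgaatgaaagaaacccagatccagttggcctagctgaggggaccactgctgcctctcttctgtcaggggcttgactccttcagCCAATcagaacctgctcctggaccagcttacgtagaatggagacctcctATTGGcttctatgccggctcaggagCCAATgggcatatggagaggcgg
The boxes of Psat1 start 155 and 125 bases before the start, the box of Phgdh starts 204 bases before it, and those of Mthfd2 start 97, 48 and 23 bases before it, of which the one at 48 lies on the other strand. Psph has no CCAAT in this window and neither does Shmt2, while Shmt1 has 1, at 194 bases on the other strand. A CCAAT on either strand was found in 34.0% of all 33469 promoter windows and in 4 of the 6 members. The element TGATGNAAN, a short form of the site that ATF4 and C/EBP proteins bind, was found on either strand in 3.38% of all windows and in 0 of the 6 members. The E-box CACGTG, which reads alike on both strands, was found in 5.59% of all windows and in 1 member, Shmt1, at 89 and 61 bases before its start. A match is a string of letters and not a measured binding site, and its absence says only that these letters are not in the window. For each member only the first window listed for its symbol was searched, so any other start was left out.

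Phgdh, the enzyme that commits carbon to serine, was higher with rapamycin than with DMSO in refed livers and lower in hepatectomised ones. In refed polysome RNA its log2 intensity was 9.36, 8.98 and 9.48 in the 3 DMSO livers and 10.32, 10.06 and 9.55 in the 3 rapamycin livers. In refed total RNA it was 9.24, 8.80 and 8.93 with DMSO and 10.16, 10.29 and 9.37 with rapamycin. Every rapamycin liver lay above every DMSO liver in both fractions, although the third rapamycin liver lay close to the DMSO range. The differences were 0.71 ± 0.27 (SE) in polysome RNA and 0.95 ± 0.27 in total RNA on the log2 scale, which are 1.63-fold and 1.94-fold.

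After hepatectomy Phgdh polysome RNA read 9.63, 10.20 and 9.81 with DMSO and 8.73, 8.06 and 8.29 with rapamycin. Total RNA read 9.65, 10.32 and 10.09 with DMSO and 8.78, 8.16 and 8.57 with rapamycin. The rapamycin livers were all lower and the groups did not overlap, with a log2 difference of -1.52 ± 0.23 in polysome and -1.51 ± 0.23 in total RNA, 2.87-fold and 2.86-fold. In fetal livers the groups overlapped: polysome RNA read 10.82, 10.91, 10.26 and 10.53 with DMSO and 10.78, 10.42, 10.20 and 10.13 with rapamycin. Fetal total RNA read 10.86, 10.83, 10.56 and 10.36 with DMSO and 10.44, 10.84, 10.40 and 10.68 with rapamycin, and the differences were -0.25 ± 0.18 and -0.06 ± 0.18. By equal number, rapamycin was lower in 4 of 4 fetal pairs in polysome RNA and in 2 of 4 in total RNA.

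Psat1, the transaminase that follows, had the larger values in the same directions. In refed polysome RNA its log2 intensity was 9.32, 9.40 and 10.28 with DMSO and 11.15, 10.62 and 10.54 with rapamycin. Refed total RNA read 8.96, 9.50 and 9.16 with DMSO and 10.80, 10.64 and 10.34 with rapamycin. The groups lay apart in both fractions, by 1.10 ± 0.27 and 1.39 ± 0.27 on the log2 scale (2.15-fold and 2.61-fold). The third DMSO liver was the highest of its group in polysome RNA but not in total RNA.

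In hepatectomised livers Psat1 polysome RNA read 10.84, 10.94 and 11.44 with DMSO, and 9.28, 9.18 and 9.0 with rapamycin. Its total RNA read 10.55, 10.82 and 11.31 with DMSO, and 9.04, 9.06 and 9.0 with rapamycin. The rapamycin livers were low and close to each other, 1.92 ± 0.19 log2 units under DMSO in polysome RNA and 1.86 ± 0.19 under it in total RNA, 3.78-fold and 3.63-fold. Fetal livers had the highest Psat1 intensity of the series: polysome RNA read 13.00, 12.91, 12.81 and 12.64 with DMSO and 12.72, 12.32, 12.22 and 11.92 with rapamycin, and total RNA 13.22, 12.89, 12.74 and 12.80 with DMSO and 12.23, 12.80, 12.47 and 12.26 with rapamycin. Rapamycin means were lower there by a log2 difference of -0.54 ± 0.16 and -0.47 ± 0.16, and the groups overlapped in both fractions. Between fetal livers of the same number, which varied together across the treatments, rapamycin minus DMSO was -0.28, -0.59, -0.59 and -0.72 in polysome and -0.99, -0.09, -0.26 and -0.54 in total RNA, lower in 4 of 4 pairs in both fractions. In polysome RNA Psph, Shmt1, Shmt2 and Mthfd1 were also lower in 4 of 4 pairs, Mthfd2 in 3 and Sds in 2. In total RNA Psph, Shmt1, Shmt2 and Mthfd2 were lower in 3 of 4 pairs, Sds in 2 and Mthfd1 in 1. The polysome count is thus not particular to Psat1 and Phgdh, and its share over all rows was not counted.

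A second array row of Psat1, with a lower intensity, pointed the same way with smaller differences: 0.51 and 0.62 in refed polysome and total RNA, -0.44 and -0.30 after hepatectomy, and -0.52 and -0.04 in fetal livers. In fetal polysome RNA the rows hardly differed, and in hepatectomy total RNA the groups of the second row overlapped. Its rapamycin effect after hepatectomy minus that in fetal livers was 0.08 ± 0.31 in polysome and -0.26 ± 0.31 in total RNA, beside -1.37 and -1.39 in the main row. Minus that in refed livers it was -0.94 and -0.92, beside -3.02 and -3.25. The size of the Psat1 response, and its difference between hepatectomised and fetal livers, thus depend on the row taken. RefSeq lists 6 pseudogene copies of Phgdh and 1 each of Psat1, Shmt2 and Mthfd1, and whether array probes share signal with them is uncertain.

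**Figure D1:**
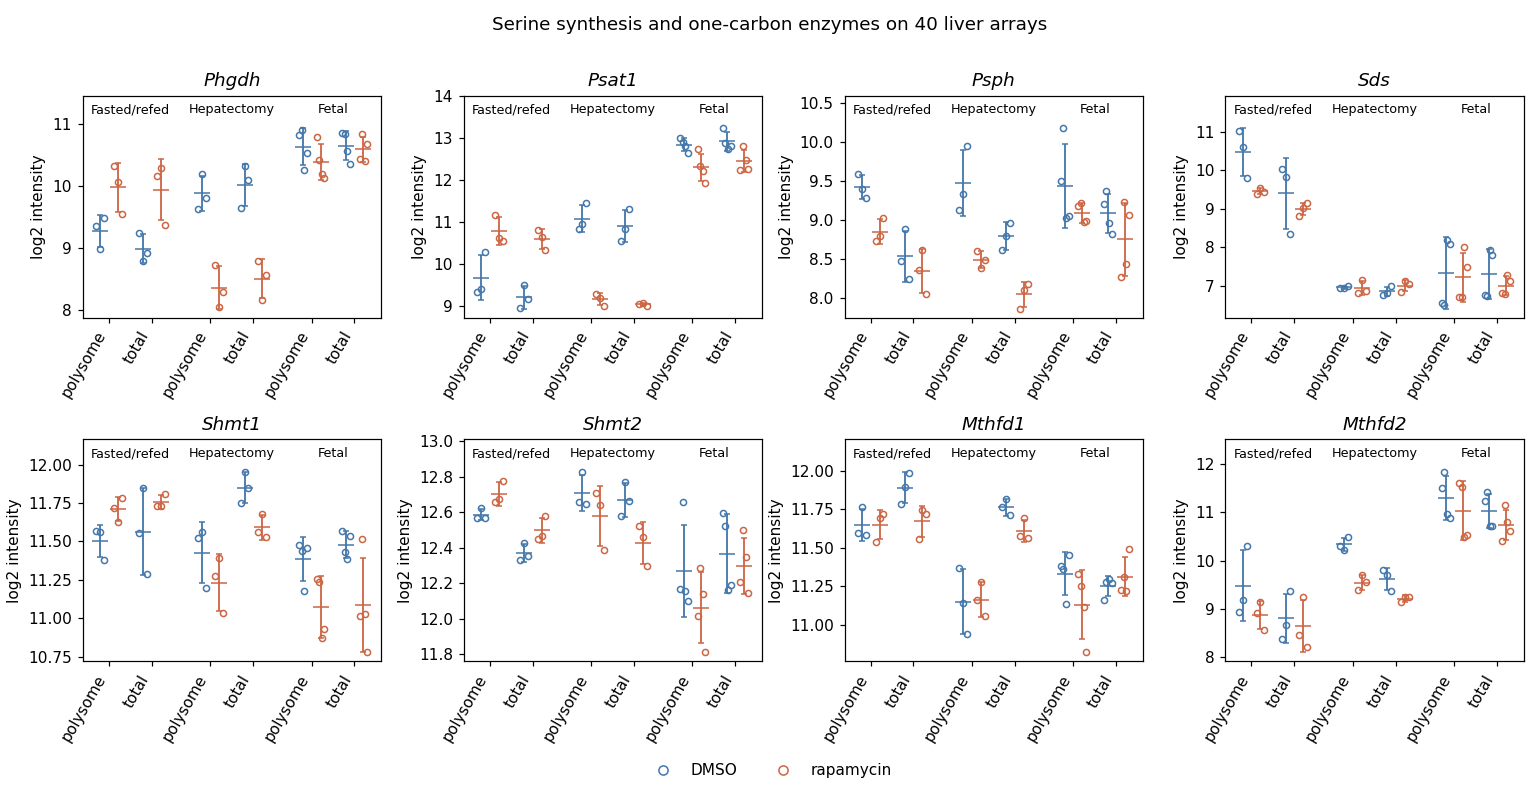
Log2 intensity of the 8 enzymes on each of the 40 arrays by model, fraction and treatment; open points are arrays, horizontal marks are group means and bars are ± 1 SD. Psat1 and Phgdh lie higher with rapamycin in refed livers and lower with rapamycin after hepatectomy, and Sds is above 8 in all refed arrays.

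Ordered by group mean, Psat1 in polysome RNA ran from hepatectomy with rapamycin (9.15 ± 0.14, SD, n = 3) and refed DMSO (9.67 ± 0.54, n = 3) through refed with rapamycin (10.77 ± 0.33) and hepatectomy DMSO (11.07 ± 0.32) to fetal with rapamycin (12.29 ± 0.33, n = 4) and fetal DMSO (12.84 ± 0.16, n = 4). The arrays of refed rapamycin and hepatectomy DMSO overlapped, as did both fetal groups, and the other neighbours did not. In total RNA the order was the same, at 9.03, 9.21, 10.59, 10.90, 12.44 and 12.91, where refed rapamycin again overlapped hepatectomy DMSO and both fetal groups each other. The lowest groups of total RNA overlapped as well, since the hepatectomy rapamycin arrays lay within the refed DMSO range of 8.96 to 9.50, so their order is not resolved. Phgdh in polysome RNA ran from hepatectomy with rapamycin (8.36 ± 0.34) and refed DMSO (9.27 ± 0.26) to hepatectomy DMSO (9.88 ± 0.29), refed with rapamycin (9.98 ± 0.39), fetal with rapamycin (10.38 ± 0.29) and fetal DMSO (10.63 ± 0.30). From hepatectomy DMSO upwards each Phgdh group overlapped its neighbour, so their order is not resolved.

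Psph, the phosphatase of the last step, fell with rapamycin after hepatectomy. Its polysome intensity was 9.12, 9.34 and 9.94 with DMSO and 8.60, 8.38 and 8.49 with rapamycin, and its total RNA intensity was 8.62, 8.79 and 8.97 with DMSO and 7.86, 8.10 and 8.17 with rapamycin. No arrays overlapped, and the log2 difference was -0.98 ± 0.18 in polysome RNA (limma with Benjamini-Hochberg adjustment over all 10860 rows tested, adjusted p = 0.0186) and -0.75 ± 0.18 in total RNA (limma adjusted p = 0.039). Both calls are fragile: the limma adjusted p in polysome RNA was 0.0542, 0.0518 and 0.0652 without the arrays DMSO 2, rapamycin 1 and rapamycin 3, and in total RNA it was 0.0607 to 0.142 without DMSO 2, DMSO 3 or any of the 3 rapamycin arrays and 0.128 when all 40 arrays were fitted together.

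Unlike Phgdh and Psat1, Psph was not higher with rapamycin in refed livers. Its refed polysome intensity was 9.59, 9.40 and 9.28 with DMSO and 8.72, 8.80 and 9.03 with rapamycin, with a difference of -0.57 ± 0.19 that did not pass (limma adjusted p = 0.904), and in refed total RNA the difference was -0.19 ± 0.19 with overlapping groups. Fetal differences were -0.35 ± 0.25 and -0.33 ± 0.25, and neither passed. The sign of the refed Psph value is opposite to that of Phgdh and Psat1, and the difference between these genes was not tested.

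Mthfd2, the mitochondrial enzyme known for its high level in embryos and dividing cells, fell with rapamycin in hepatectomy polysome RNA. It read 10.30, 10.22 and 10.49 with DMSO and 9.38, 9.69 and 9.55 with rapamycin, a difference of -0.79 ± 0.13 (1.73-fold; limma adjusted p = 0.0112). The call held without each of the 6 arrays in turn, while the adjusted p was 0.248 with all 40 arrays in the limma fit. Total RNA read 9.79, 9.70 and 9.36 with DMSO and 9.13, 9.25 and 9.26 with rapamycin, without overlap but below the threshold (-0.41 ± 0.13, limma adjusted p = 0.0821). A second Mthfd2 row gave -0.94 (limma adjusted p = 0.0054) and -0.45 (limma adjusted p = 0.0503). In refed livers Mthfd2 varied widely between livers (8.93, 9.19 and 10.31 in polysome DMSO) and its differences were -0.61 ± 0.39 and -0.16 ± 0.39, and fetal differences were -0.26 ± 0.29 and -0.28 ± 0.29. None of these 4 passed.

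The other 4 enzymes did not pass for rapamycin in any model or fraction. Shmt1, the cytosolic hydroxymethyltransferase, had differences of 0.21 and 0.19 in refed, -0.19 and -0.26 in hepatectomy and -0.32 and -0.39 in fetal polysome and total RNA. For Shmt2, its mitochondrial counterpart, they were 0.12 and 0.13, -0.13 and -0.24, and -0.21 and -0.07. Mthfd1, the cytosolic folate enzyme, lay between -0.22 and 0.06 throughout. In hepatectomy total RNA all rapamycin livers of Shmt1, Shmt2 and Mthfd1 lay below all DMSO livers. Shmt1 read 11.53 to 11.68 against 11.75 to 11.95, and Shmt2 12.30 to 12.52 against 12.58 to 12.77. Mthfd1 read 11.56 to 11.69 against 11.71 to 11.82. With rapamycin in refed livers Shmt2 lay higher without overlap in both fractions and Shmt1 in polysome RNA, while Mthfd1 lay lower in total RNA. How often other rows lie apart in this way was not counted, so these separations are not a result about the enzymes. Sds, the serine-degrading enzyme, gave -1.02 ± 0.40 in refed polysome RNA, where the DMSO livers read 11.02, 10.61 and 9.81 and the rapamycin livers 9.39, 9.55 and 9.43. Those Sds groups did not overlap, yet the value did not pass (limma adjusted p = 0.957), and in refed total RNA the groups overlapped (10.05, 9.82 and 8.34 against 8.82, 9.03 and 9.14).

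Of the 6 enzymes that did not enter the choice, 2 were thus lower with rapamycin in hepatectomy polysome RNA (Psph and Mthfd2) and 1 in total RNA (Psph), against 6.35% of all rows called in polysome RNA (2.26% higher and 4.10% lower) and 5.01% in total RNA (1.47% higher and 3.54% lower). The median difference over these 6 enzymes was -0.16 and -0.25, beside -0.01 and -0.01 over all rows tested. The members were listed with earlier results of these data known, so these 6 may not be independent of the values. In refed and fetal livers limma called 0.00% of rows in either fraction; 526 and 1832 rows in refed polysome and total RNA and 247 and 199 in fetal ones had an unadjusted p under 0.05. Calls in the refed model depended on the fit: with all 40 arrays limma called 5 rows in polysome and 349 in total RNA. The number called after hepatectomy was 690 in polysome RNA and 544 in total RNA, and it ranged from 57 (without rapamycin 3) to 1687 (without DMSO 1) and from 4 (without rapamycin 1) to 847 (without DMSO 1) when arrays were left out.

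**Figure D2:**
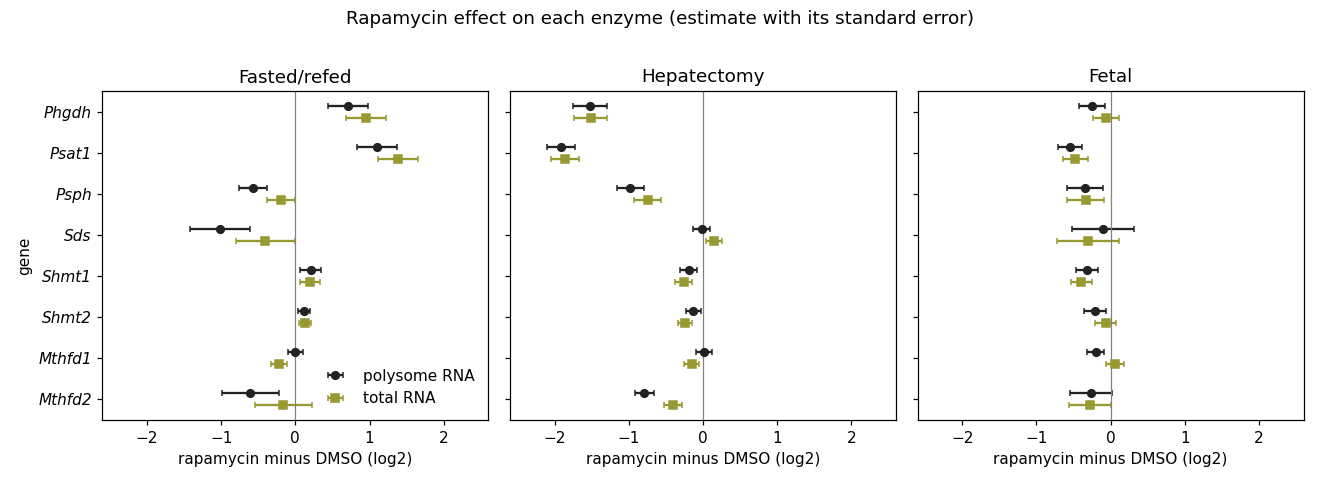
Rapamycin minus DMSO on the log2 scale for each enzyme in the 3 models; circles are polysome RNA, squares total RNA and bars ± 1 standard error of the limma fit. Phgdh and Psat1 lie right of 0 in refed livers and left of 0 after hepatectomy. Psph and Mthfd2 lie left of 0 in all 3 models, and Shmt1 and Shmt2 lie left of 0 after hepatectomy and in fetal livers.

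Whether the rapamycin effect differed between the fractions was tested for the 6 enzymes outside the choice, and none passed. The effects were not equal in size: Mthfd2 gave -0.79 in polysome and -0.41 in total RNA after hepatectomy, and Sds gave -1.02 and -0.40 in refed livers. As a description, for Psat1 the difference between fractions (polysome minus total) was -0.28 ± 0.38 in refed, -0.06 ± 0.27 in hepatectomy and -0.07 ± 0.23 in fetal livers, and for Phgdh it was -0.25 ± 0.38, 0.00 ± 0.32 and -0.19 ± 0.25. The largest by its error among the 6 was that of Mthfd2 after hepatectomy, -0.39 ± 0.18 (limma adjusted p = 1). Limma called 0.00% of all rows for this difference in each model, with 266, 158 and 45 rows at an unadjusted p under 0.05. With errors of this size, missing the threshold does not show that the effects were equal.

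A test of whether the rapamycin effect differed between the 3 models called 0.0368% of rows in polysome RNA and 0.424% in total RNA. None of the 6 enzymes outside the choice passed it. Shmt1 in total RNA had the highest F among them (4.88, limma adjusted p = 0.205), with values of 0.19, -0.26 and -0.39 in refed, hepatectomy and fetal livers. Without the array refed total DMSO 2 its F was 7.40 (limma adjusted p = 0.0282), so that 1 array decides that call.

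Polysome and total RNA of the DMSO livers, matched by number, were compared next, to describe which of these mRNAs were enriched on polysomes without the drug. These comparisons, the rapamycin comparisons and those between models share the DMSO arrays. Psph passed as higher on polysomes in both adult models. Polysome minus total was 1.11, 0.51 and 1.04 in the 3 refed livers (mean difference 0.89 ± 0.19, limma adjusted p = 0.00742) and 0.51, 0.54 and 0.98 in the 3 hepatectomised livers (0.68 ± 0.18, limma adjusted p = 0.00995). All 4 fetal pairs of equal number were positive too, at 0.30, 0.80, 0.07 and 0.23, but the fetal mean of 0.35 ± 0.25 did not pass (limma adjusted p = 0.375).

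Mthfd2 was higher on polysomes after hepatectomy, by 0.51, 0.52 and 1.12 in the 3 livers (0.72 ± 0.13, limma adjusted p = 0.000855), although the limma adjusted p was 0.104 with all 40 arrays in the fit. In refed livers it was higher by 0.56, 0.52 and 0.95 (0.68 ± 0.39, limma adjusted p = 0.226, and 0.00446 when the liver was added as a block). Sds on polysomes exceeded total RNA in all 3 refed livers, by 0.97, 0.79 and 1.48 (1.08 ± 0.40, limma adjusted p = 0.0726, and 0.000616 with the liver as a block), and by 0.18, 0.12 and 0.01 after hepatectomy. Shmt2 exceeded it by 0.24, 0.20 and 0.22 in refed livers (limma adjusted p = 0.0612, and 0.037 with the liver as a block), but after loess scaling the Shmt2 difference was -0.03, so its direction depends on the scaling.

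Mthfd1 and Shmt1, both cytosolic, were lower on polysomes after hepatectomy. Mthfd1 differed by -0.40, -0.68 and -0.77 in the 3 livers (-0.61 ± 0.11, limma adjusted p = 0.000722; its second row -0.37, limma adjusted p = 0.0118) and Shmt1 by -0.23, -0.39 and -0.65 (-0.42 ± 0.12, limma adjusted p = 0.0122). The Shmt1 call was lost without the array DMSO 3 of polysome RNA (limma adjusted p = 0.0519). In refed livers Mthfd1 differed by -0.24 ± 0.11 (limma adjusted p = 0.124), which passed after loess scaling (-0.48, limma adjusted p = 0.0117). Phgdh and Psat1 did not pass in any model: Psat1 gave 0.37, -0.11 and 1.13 in refed, 0.28, 0.12 and 0.13 in hepatectomised and -0.22, 0.02, 0.07 and -0.16 in fetal livers, and Phgdh means were 0.28, -0.14 and -0.02.

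In all, 1 member passed in refed livers, 4 after hepatectomy (2 higher and 2 lower on polysomes) and 0 in fetal livers, where 24.7% (19.5% higher and 5.14% lower), 43.8% (28.8% higher) and 14.5% (8.10% and 6.38%) of all rows passed. The median over the 8 members was 0.37, 0.07 and 0.00, and over all rows 0.10, 0.09 and 0.04. The share of called rows that were higher on polysomes was 79.2%, 65.8% and 55.9% and became 61.1%, 54.5% and 45.5% after loess scaling. RMA sets the arrays to 1 distribution and so hides any shift that all mRNAs of a fraction share.

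**Figure D3:**
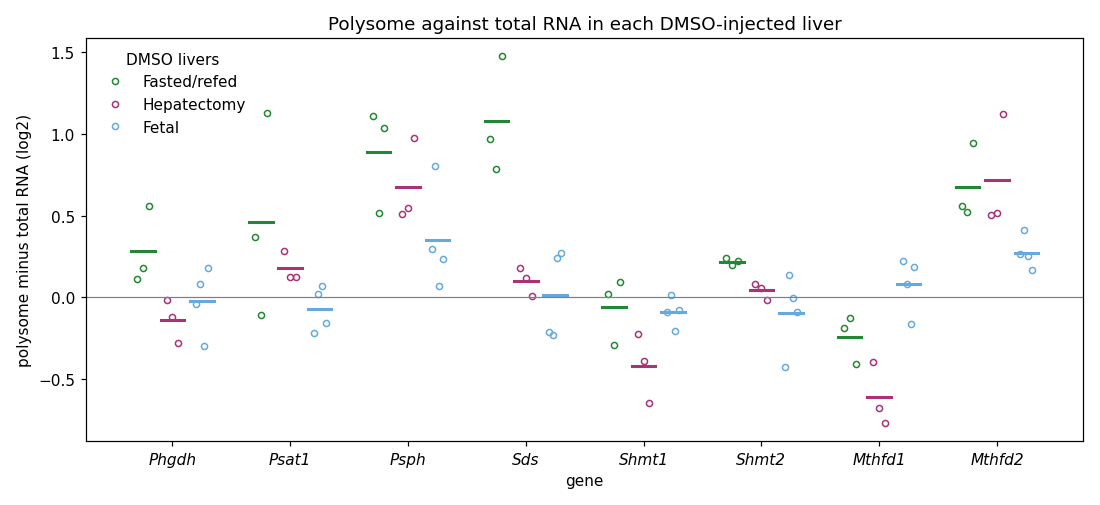
Polysome minus total RNA (log2) for each enzyme in each DMSO-injected liver; points are livers (3 refed, 3 hepatectomy, 4 fetal) and bars are means. All livers lie above 0 for Psph and Mthfd2, and all hepatectomy livers lie below 0 for Mthfd1 and Shmt1.

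The DMSO livers themselves differed between models, as read in total RNA. Sds was highest in refed livers: 10.05, 9.82 and 8.34 against 6.75, 6.81 and 6.99 after hepatectomy (difference -2.55 ± 0.41, limma adjusted p = 2.37e-05) and against 6.75, 6.73, 7.94 and 7.81 in fetal livers (-2.09 ± 0.38, limma adjusted p = 3.36e-05). Its hepatectomy arrays lay close to the threshold of low values, 6.70. Among fetal arrays Sds was uneven: the fetuses numbered 3 and 4 read 7.94 and 7.81 in total and 8.18 and 8.08 in polysome RNA with DMSO, and with rapamycin 7.29 and 7.11 in total RNA and no lower than 7.49 in polysome RNA, whereas those numbered 1 and 2 read 6.49 to 6.82 on all 8 of their arrays. The 2 numbers did not overlap the other 2 in either fraction or treatment, and no label gives what they share.

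Mthfd2 was highest in the fetus. Its total RNA read 8.37, 8.67 and 9.37 in refed, 9.79, 9.70 and 9.36 in hepatectomised and 11.24, 11.42, 10.72 and 10.72 in fetal DMSO livers. Fetal exceeded refed livers by 2.22 ± 0.31 (limma adjusted p = 3.15e-07) and hepatectomised ones by 1.41 ± 0.31 (limma adjusted p = 0.0004). Hepatectomised livers exceeded refed ones by 0.82 ± 0.33, which did not pass (limma adjusted p = 0.0824), while it did pass without the array refed total DMSO 3 (0.0381) and in the second row (1.18, limma adjusted p = 0.0456). Mthfd1 went the other way: 11.79, 11.90 and 11.99 in refed, 11.76, 11.82 and 11.71 in hepatectomised and 11.16, 11.28, 11.30 and 11.27 in fetal livers, lower in the fetus by a log2 difference of -0.64 ± 0.11 and -0.51 ± 0.11 (limma adjusted p = 9.16e-06 and 0.000265; the second Mthfd1 row gave 0.00201 and 0.055).

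The remaining levels differed less. Psph was higher in fetal than refed livers by 0.55 ± 0.23 (limma adjusted p = 0.0483), a call lost with no filter, with loess scaling, and without 5 of the 7 arrays in turn. Shmt1 and Shmt2 were lower in fetal than in hepatectomised livers, by a log2 difference of -0.37 ± 0.14 and -0.30 ± 0.12 (limma adjusted p = 0.0313 and 0.0484), and both calls were lost without single arrays of either group (Shmt1 up to 0.119, Shmt2 up to 0.168). Shmt1 also passed between hepatectomised and refed livers without the array refed total DMSO 2 (0.43, limma adjusted p = 0.0363; 0.29 and 0.181 with it). As a description, Psat1 stood 1.69 higher after hepatectomy and 3.71 higher in the fetus than in refed livers, and Phgdh 1.03 and 1.66 higher. Among all rows 17.5% passed between hepatectomised and refed livers (12.4% higher and 5.03% lower after hepatectomy), 47.1% between fetal and refed livers (28.1% higher in the fetus) and 36.9% between fetal and hepatectomised livers (19.9% and 17.0%). Of the 6 enzymes outside the choice, 1, 4 and 4 passed in these comparisons.

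Genes around these enzymes were read from lists of the pathway. Among 22 tested genes that carry or use serine and glycine none passed for rapamycin in any model (limma; 0 to 6 had an unadjusted p under 0.05 in the 6 comparisons), and their median after hepatectomy was 0.00 in polysome and 0.01 in total RNA. The smallest p in refed livers belonged to Slc6a9, a glycine carrier, with 0.88 ± 0.18 and 0.77 ± 0.18 (limma adjusted p = 0.384 and 0.237). Gldc, the glycine-cleaving decarboxylase, gave -0.18 and -0.22 after hepatectomy, and Slc1a4, a carrier of serine, -0.07 and 0.00. On polysomes 6 of the 22 were higher than in total RNA in refed livers and 6 higher and 4 lower after hepatectomy, beside 19.5% of all rows higher in refed livers and 28.8% higher after hepatectomy, where 43.8% passed in either direction, so the list lay near the background. Among them were Gnmt, which methylates glycine (1.01 and 0.98), and Gldc (-0.72 after hepatectomy). The Gnmt call after hepatectomy was lost without the polysome arrays DMSO 1 or DMSO 3 or the total RNA array DMSO 2. Between DMSO livers the largest level differences of this list were in Hao1, the glycolate oxidase (-2.88, fetal minus refed), and Slc1a5, a carrier of neutral amino acids (2.78).

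For the lists that follow, the share of all rows called for rapamycin after hepatectomy was 2.26% higher and 4.10% lower in polysome RNA and 1.47% higher and 3.54% lower in total RNA. In the folate list 1 of 13 tested genes fell in polysome RNA and 0 in total RNA, a count near that background: Mthfd1l, the mitochondrial formate-producing partner of Mthfd2 (-0.55 ± 0.14, limma adjusted p = 0.0403), a call lost without 5 of the 6 arrays in turn. Its total RNA difference was -0.37 ± 0.14 (limma adjusted p = 0.137). Tyms, which uses folate carbon to make thymidylate, gave -0.92 ± 0.28 and -0.98 ± 0.28 (limma adjusted p = 0.0689 and 0.0628). Like Mthfd2, Mthfd1l was higher in fetal than refed livers (1.39, limma adjusted p = 2.05e-09). Tyms was higher after hepatectomy (2.29) and in the fetus (1.85) than in refed livers.

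Of 17 genes of the methionine cycle, 1 rose and 3 fell with rapamycin after hepatectomy in each fraction. Nnmt, which spends methyl groups on nicotinamide, fell most (-1.13 ± 0.10 and -1.10 ± 0.10, limma adjusted p = 0.00075 and 0.000637), and its calls held without any single array. Amd1, of polyamine synthesis, fell by 0.95 and 0.87, and Cbs, which joins serine to homocysteine, fell by 0.59 and 0.54 on the log2 scale. Mat1a, the hepatocyte synthetase of S-adenosylmethionine, rose by 0.54 and 0.39. In total RNA the calls of Amd1, Cbs and Mat1a were each lost without DMSO 2, DMSO 3, rapamycin 1 or rapamycin 3, and in polysome RNA that of Mat1a without rapamycin 3 and that of Cbs without DMSO 2, rapamycin 1 or rapamycin 3. The count in total RNA was 1 without the array DMSO 2 and that in polysome RNA 2 without rapamycin 3. In purine synthesis 1 of 10 genes fell in each fraction, Pfas (-0.48 and -0.60), and none did without the array DMSO 2 of either fraction.

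The amino acid response list holds known ATF4 targets. After hepatectomy 4 of 26 fell in polysome RNA (Trib3 -1.27, Gpt2 -0.87, Ddit4 -0.73, Cebpb -0.45) and 3 in total RNA (Trib3 -0.98, Gpt2 -0.95, Nars1 -0.48), and none rose. The list's medians were -0.32 and -0.26 beside -0.01 and -0.01 over all rows, and the counts were 0 without the array DMSO 2 of either fraction and 8 and 4 without DMSO 1. Asns, the asparagine synthetase, had values like those of Phgdh in sign: 0.46 ± 0.40 and 0.70 ± 0.40 in refed and -0.80 ± 0.23 and -0.63 ± 0.23 in hepatectomised livers, none past the threshold (limma adjusted p = 0.0583 at the lowest). Atf4 mRNA itself gave -0.18 and -0.01 in refed, -0.20 and -0.11 in hepatectomised and -0.11 and -0.17 in fetal livers, and none passed. In refed and fetal livers 0 genes of the list passed in limma, with 1 to 3 at an unadjusted p under 0.05.

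Glycolysis supplies the substrate of Phgdh. Of 14 glycolytic genes 1 changed with rapamycin after hepatectomy, Pklr, the liver pyruvate kinase, which rose by 0.92 and 0.98 (limma adjusted p = 0.00837 and 0.009; in total RNA the call was lost without the array DMSO 3 or rapamycin 1). Between fetal and refed DMSO livers 13 of the 14 were higher in the fetus (median 0.87), beside 28.1% of all rows (median 0.04), led by Hk1 (3.09) and Pkm (2.12), where Mthfd2 was higher as well. In the list of fasting catabolism, 3 of 13 genes passed with rapamycin in hepatectomy polysome RNA (Pc 0.73, Gls2 0.66, Tat -0.46) and 1 in total RNA (Gls2 0.83), and each count was 0 without the array DMSO 2. Pck1, the gluconeogenic enzyme, gave 2.09 ± 0.36 and 1.76 ± 0.36 with rapamycin in refed livers, not past the threshold (limma adjusted p = 0.239 and 0.214), where Sds gave -1.02 and -0.40.

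Proliferation genes moved with the hepatectomy comparison. With rapamycin 9 of 15 fell in polysome RNA (median -1.19) and 10 in total RNA (median -1.44), among them Ccnb2 (-2.09 and -2.12) and Birc5 (-1.78 and -1.56), and none rose. Without the array DMSO 2 these counts were 1 and 0. The list's mean was 10.43 to 10.85 with DMSO and 9.04 to 10.06 with rapamycin in polysome RNA. Marker lists of 4 other liver cell types had higher group means with rapamycin after hepatectomy. So did the erythroid and granulocyte lists, whose arrays overlapped except for granulocyte markers in total RNA. Of 8 endothelial markers 3 rose in each fraction (Tek, Emcn and Plvap), and the list's mean was 8.98 to 9.53 with DMSO and 9.65 to 9.80 with rapamycin in polysome RNA and 9.52 to 9.86 and 10.09 to 10.24 in total RNA. The endothelial mean was higher with rapamycin in refed livers too. It was 9.40 to 9.49 with DMSO and 9.54 to 9.67 with rapamycin in polysome RNA, and 9.75 to 9.80 and 9.92 to 9.96 in total RNA. In refed livers 0 of the 8 endothelial markers passed in limma in either fraction (1 and 3 at an unadjusted p under 0.05). Of 9 macrophage markers 1 rose, Adgre1 in polysome RNA, where the list's mean was 9.78 to 10.30 with DMSO and 10.37 to 10.49 with rapamycin; in total RNA 0 passed in limma (2 at an unadjusted p under 0.05) and the means overlapped (10.31 to 10.67 and 10.46 to 10.68). Of 9 stellate cell markers tested (10 in the mean) 1 rose, Pdgfrb in polysome RNA, where the means overlapped (8.29 to 8.83 and 8.66 to 8.91), and in total RNA 0 passed in limma (2 at an unadjusted p under 0.05) while the means did not overlap (9.03 to 9.28 and 9.41 to 9.60). Of 4 bile duct markers tested (5 in the mean) 0 passed in limma in either fraction (0 and 3 at an unadjusted p under 0.05), with means of 6.59 to 6.89 and 6.78 to 6.92 in polysome RNA and 7.11 to 7.29 and 7.33 to 7.40 in total RNA. Of 10 hepatocyte markers 0 passed in limma, with 2 and 1 at an unadjusted p under 0.05. The part of these shifts in the values of Psat1, Phgdh, Psph and Mthfd2 was not tested.

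**Figure D4:**
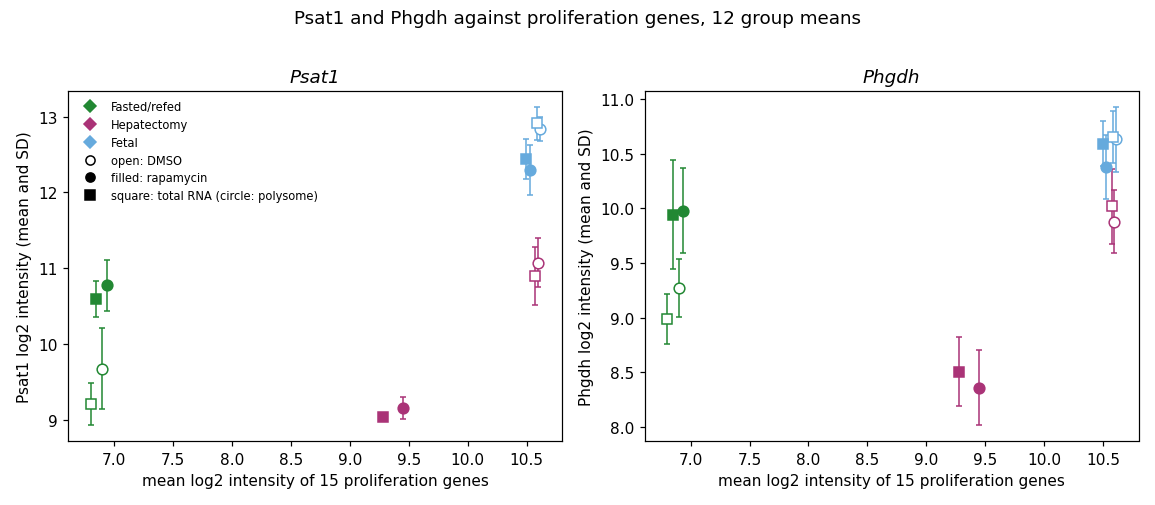
Mean log2 intensity (± 1 SD) of Psat1 and Phgdh in the 12 groups against the mean log2 intensity of 15 proliferation genes; open symbols are DMSO, filled symbols rapamycin, circles polysome and squares total RNA. Refed groups lie higher with rapamycin and stay near 7 on the horizontal axis, whereas hepatectomy groups move down and left.

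Across the 12 group means the 5 genes most like Psat1 out of 10202 were Pgk1, the glycolytic kinase that makes the substrate of Phgdh (Pearson r = 0.956), Phgdh (0.951), Rbm22 (0.946) and Prpf31 (0.939), both splicing factors, and Cdkn1b, an inhibitor of cyclin-dependent kinases (0.941). The genes most like Phgdh were Psat1 (0.951), Eif2s3, a subunit of the initiation factor eIF2 (0.921), Gpat3, an acyltransferase of lipid synthesis (0.917), Asns (0.896) and Xrcc5, of DNA repair (0.891). Mthfd2 ranked 671 for Psat1 (0.83) and Psph 2593 (0.55), and the other members were negative: Shmt1 -0.36, Sds -0.37, Shmt2 -0.48 and Mthfd1 -0.52. Each liver enters 2 of the 12 means, 1 per fraction, and the means are set largely by the 3 models, so these values describe a pattern of levels and nothing more.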

How the data were processed

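The values were array intensities on a linear scale, which the authors deposited after RMA normalization (submitters' processing notes); version, settings and build of the annotation are not stated there. They ran from 3.77 to 28447, were log2-transformed here, and had a median per array of 7.09 to 7.40. Precision is limited by the number of arrays, which have no read depth. No array repeated another (smallest root mean square difference 0.233 log2). Of 28826 rows, 15209 had 1 platform symbol, 306 several and 13311 none; 15178 matched a RefSeq table (GRCr8) by Entrez number and 0 symbols changed. The 10860 rows tested had a symbol and a mean log2 intensity of at least 6.70, the 30th percentile of rows with a symbol; all 8 members passed. Fits used limma 3.58.1 (R 4.3.3) with an intensity trend, two-sided, Benjamini-Hochberg over the rows tested, threshold 0.05. Fits across models and levels used all 40 arrays, others the arrays of 1 model. Unless a liver block is named, they took polysome and total RNA arrays of equal number as independent, although their deviations correlated. The spread behind the p-values thus rests on fewer independent livers than arrays. Scripts were tested on simulated data.

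Members and 15 gene lists were chosen with earlier results of these data known. Genes named beside the members were up to 4 of each list past the threshold with the largest change, or the 2 smallest p, 11 fixed genes where tested, and the 5 most alike in group means. Arrays of equal treatment and number in both fractions were taken as 1 liver (correlation of their deviations 0.33 to 0.82). Numbers also paired the treatments in fetal livers (0.42 to 0.75) but not in hepatectomised (-0.07 to 0.28) or refed ones (-0.62 to 0.39). In fetal livers the fractions correlated no more closely (0.33 to 0.69) than the treatments, so these correlations do not establish that equal numbers are 1 liver there. Alternatives were no filter, cyclic loess scaling, no variance trend, all arrays in 1 fit, a replicate block, another row of the gene, and leaving out each array.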

Additional observations from a re-analysis of the deposited data

Results flagged for a closer look

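In fetal polysome DMSO livers 2 arrays stood far from the other 3 of their group. Shmt1 was low in replicate 3, at 11.17 against 11.44 for the nearest liver, and Shmt2 was high in replicate 2, at 12.66 against 12.17. Of the 32 groups of 4 arrays examined over the 8 members, 2 were marked in this way, and chance marks about 1 in 20.

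The rapamycin effect on Psat1 and Phgdh differed between the models, which is what they were chosen for, so the statistic is given as a description: the F over the 3 models was 43.8 for Psat1 and 20.7 for Phgdh in polysome RNA, and 50.8 and 25.6 in total RNA.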

How the results depend on the processing

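Of 1947 member values recomputed under an alternative, 1881 kept their direction and side of the threshold or moved by less than the spread, 22 moved by more, 12 newly passed, 32 no longer passed and 0 called values changed sign. Counts of called rows moved more. With all 40 arrays in the fit, the rapamycin counts were 5 and 349 in refed polysome and total RNA and 193 and 217 after hepatectomy, and 2840 rows passed between fractions after hepatectomy. With the replicate number as a block, they were 2 in refed polysome RNA, 1481 and 1246 after hepatectomy, and 209 and 847 for the difference between models in polysome and total RNA; numbers paired only the fetal treatments, where the block changed no call. With the liver as a block, 4615 refed and 3044 fetal rows passed between fractions, and beside the members named above the pairing changed no other member's call. The difference between models in total RNA called 15 rows with no filter and 18 with loess scaling. Loess also moved the share of higher calls for rapamycin in hepatectomy total RNA from 29.4% to 41.4%.

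Leaving out 1 array at a time gave 0 to 1 called rows for rapamycin in refed polysome RNA, 0 to 1756 in refed total RNA, 57 to 1687 and 4 to 847 after hepatectomy, 2 to 41 and 2 to 1332 for the difference between models in polysome and total RNA, 883 to 1354 for fetal polysome against total RNA, and 1119 to 2890 for hepatectomised against refed levels. Of the calls in the pathway lists after hepatectomy, 3 of 14 in polysome and 1 of 10 in total RNA held without every single array. With 3 or 4 livers per group, member differences near their standard errors were not resolved.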
